A study of Mus musculus with 6 samples.

Results

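The genes described here are 40 genes of the liver's extracellular matrix and of fibrosis: collagens, proteoglycans, glycoproteins, crosslinking enzymes, proteases with their inhibitors, growth factor genes and genes of the myofibroblast cytoskeleton. They were chosen by name, and all 40 were found among the 46983 gene rows of the count table. RNA-seq had been done on whole livers of chow-fed mice aged 12 weeks, with C57BL/6 as the strain background and no treatment. The knockout group (3 libraries) lacked AEG-1, the product of Mtdh, in hepatocytes only. The control group (3 libraries) carried the floxed AEG-1fl/fl allele according to the series description, and its titles call it WT. The driver of the hepatocyte-specific deletion is not given in the sources used here. The libraries are labelled as biological replicates from 3 adult mice per group. Control replicates 1 and 2 held identical counts in every row. The pair differed by less than sampling noise would give and was taken as 1 sample, called control replicate 1, which left 3 knockout and 2 control libraries. Values of single libraries are always given in the order knockout replicates 1, 2 and 3, then control replicates 1 and 3.

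In a healthy liver most fibrillar collagen is made by hepatic stellate cells, which lie between the sinusoidal endothelium and the hepatocytes, and by portal fibroblasts around the bile ducts and vessels. Upon injury these cells can turn into myofibroblasts, which carry smooth muscle actin and secrete collagen under the control of TGF-beta. Hepatocytes themselves secrete matrix proteins too, among them plasma fibronectin. The matrix is shaped further by lysyl oxidases, which crosslink collagen and elastin, and by the balance of matrix metalloproteinases and their tissue inhibitors, the TIMPs.

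Levels are given as CPM, each count scaled to its library's total after TMM adjustment (trimmed mean of M values, which corrects for differences in library composition), and levels of different genes are compared only as RPKM, the same value per kilobase of summed exon length. Libraries held 29557477 to 33685670 counts, and 3 counts corresponded to 0.0891 to 0.102 CPM before TMM scaling. Mtdh, the deleted gene, was at 2.90, 2.23 and 2.38 CPM in knockout and 48.0 and 54.6 CPM in control libraries, so each library went with its label, and its log2 fold change was -4.36 (SE 0.15), with an adjusted p of 0.000564 by edgeR's quasi-likelihood test. It was the 1 gene of 16441 tested to pass the threshold of 0.05. Alb, the albumin gene that defines the tissue, was at 60720, 59580 and 70370 CPM in knockout and 80510 and 53730 CPM in control libraries.

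No member of the matrix set passed the threshold, but most were at lower fitted levels in knockout livers. Of the 40 members, 38 had enough counts to be tested, and Lox and Timp1 did not. By edgeR, 0 of 38 passed an adjusted p of 0.05, where 0.00608% of all tested genes did, and the adjusted p of every member was 1. DESeq2 called 1 member, Dpt, which was lower, against 0.116% of all genes (0.0791% lower and 0.0365% higher), and limma-voom called 0. At an unadjusted p under 0.05 by edgeR there were 8 members, 7 lower and 1 higher, which is 21.1% of the 38 beside 3.43% of all tested genes (1.80% lower and 1.63% higher). The log2 fold change was negative for 33 of 38 members, beside 47.9% of all genes. Their median was -0.30, against 0.01 for all tested genes. In 11 members every knockout library lay below both control libraries, beside 8.72% of all genes. In 1 member, Tgfbr2, every knockout library lay above both, beside 8.16% of all genes. In terms of precision, the fitted 95% interval lay between -1 and 1 on the log2 scale in 21 of the 38 members, beside 74.8% of all genes, and in the other members it reached past a 2-fold difference. These shares describe the set and are no test of it, because the genes were chosen with earlier results of these data known.

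**Figure D1:**
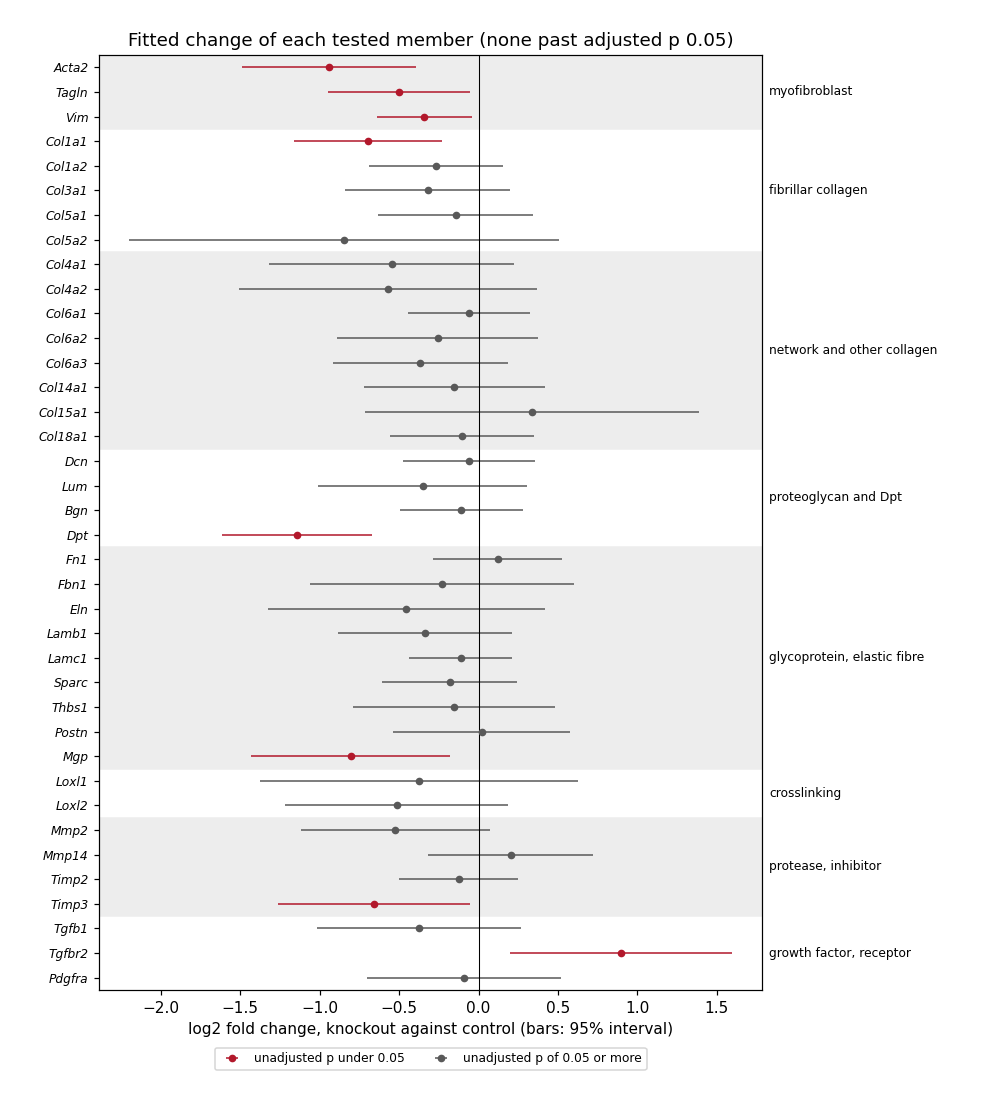
Fitted log2 fold change of knockout against control livers (x axis) for the 38 tested members, grouped by role, with 95% intervals as bars. Red marks the 8 members with an unadjusted p under 0.05. Dpt has the lowest value, -1.14, and Tgfbr2 the highest, 0.90, and 33 of the 38 points lie left of 0.

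The sequences before the transcription starts of 3 members are shown, because these genes are among the 8 members with an unadjusted p under 0.05, including the lowest and the highest fold change. They have an entry in the RefSeq promoter table used here (build GRCm38.p6), and most of the 250 bases before each start lay outside annotated exons. Acta2 and Vim, also among the 8, had entries and matches to the searched motifs but are not printed. The table held 25 of the 40 members. Dpt and Timp3 were lower in every knockout library and Tgfbr2 was higher. Each is written 5′ to 3′ on the gene's strand and ends before the first annotated exon base. Capitals mark a match, on either strand, to a motif that was searched. These were the TATA box TATAAA, the NF-Y factor motif CCAAT, the GC box written GGGCGG, the TEAD factor motif CATTCC and the CArG box of serum response factor.
Dpt (chr1:164796413-164796643, plus strand): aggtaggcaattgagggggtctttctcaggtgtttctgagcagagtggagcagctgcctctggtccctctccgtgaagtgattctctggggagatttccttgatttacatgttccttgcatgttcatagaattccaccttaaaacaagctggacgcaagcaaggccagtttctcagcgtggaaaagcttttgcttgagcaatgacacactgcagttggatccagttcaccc
Timp3 (chr10:86300162-86300371, plus strand): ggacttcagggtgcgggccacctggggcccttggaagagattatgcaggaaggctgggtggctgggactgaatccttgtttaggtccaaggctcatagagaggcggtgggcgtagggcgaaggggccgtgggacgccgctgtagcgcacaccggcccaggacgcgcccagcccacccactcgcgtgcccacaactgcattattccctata
Tgfbr2 (chr9:116175364-116175613, minus strand): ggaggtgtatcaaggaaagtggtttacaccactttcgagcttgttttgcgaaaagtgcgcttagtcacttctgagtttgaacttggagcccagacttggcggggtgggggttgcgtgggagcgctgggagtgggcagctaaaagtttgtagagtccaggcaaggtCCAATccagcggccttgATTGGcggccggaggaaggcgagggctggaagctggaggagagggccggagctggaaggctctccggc
Of these motifs, Tgfbr2 held 2 CCAAT matches, 1 on each strand, which begin 85 and 68 bases before the RefSeq start. The printed stretches of Dpt and Timp3 held no match, and the GGGCGG match counted for Timp3 reaches into the bases that were left out as exon. Among the 25 members in the table, 10 had CCAAT in the 250 bases before a start, 13 had GGGCGG, 5 had CATTCC, 3 had TATAAA and 0 had a CArG box. Some genes have more than 1 start, and the 25 members had 28 such windows. Of these windows 10 held CCAAT, 14 GGGCGG, 5 CATTCC, 3 TATAAA and 0 a CArG box. Over all 32851 windows the shares were 33.8% for CCAAT, 32.7% for GGGCGG, 12.6% for CATTCC, 12.4% for TATAAA and 1.47% for a CArG box. A match of letters is a description and not evidence of a bound factor.

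The lower levels were not evenly spread over the knockout livers. Knockout replicate 3 was the lowest of the 5 libraries in 24 of 38 members (63.2%), where it was the lowest in 22.4% of all tested genes, and it was the highest in 0. Knockout replicate 2 was the lowest in 9 members and knockout replicate 1 in 0. Control replicate 3 was the highest library in 16 members and control replicate 1 in 11. Without knockout replicate 3 the members' median log2 fold change was -0.13 and 27 members were negative. The groups of the remaining libraries did not overlap, in either direction, in 12 of 38 members (31.6%), near the 31.4% of all genes tested in that fit. With all 5 libraries those shares were 31.6% and 16.9%. By direction, 11 of 38 members lay below the controls without knockout replicate 3, beside 15.3% of all genes. With all 5 libraries 11 members did, beside 8.72% of all genes. Knockout replicate 3 was picked from these same values, so leaving it out tends to shrink the difference. Without knockout replicate 1 or 2 instead, 44.7% and 52.6% of members did not overlap, beside 26.85% and 32.75% of all genes. Sums of stellate and endothelial cell markers are given for comparison. The summed stellate cell markers (12 of 12 tested, 11 of them with negative values) were at 217, 171 and 142 CPM in knockout and 208 and 222 CPM in control livers. Endothelial markers (11 of 12 negative) stood at 351, 269 and 249 CPM in knockout and 320.2 and 402 CPM in control livers. Both sums were lowest in knockout replicate 3, and in both knockout replicate 2 also lay below the controls. The stellate genes with the smallest p were Rgs5, with -0.66 (SE 0.15), and Hgf, with -0.43 (SE 0.29), and the endothelial ones Pecam1, with -0.69 (SE 0.23), and Cdh5, with -0.57 (SE 0.19), all as log2 fold changes. Lrat, the retinoid-esterifying enzyme that defines quiescent stellate cells, was at 23.1, 13.4 and 10.9 CPM in knockout and 22.3 and 16.4 CPM in control libraries, and no stellate marker was at 0 in any library. The part of these markers in the members' lower levels was not tested. In RNA from whole liver, fewer cells of a type and less RNA per cell cannot be told apart.

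**Figure D2:**
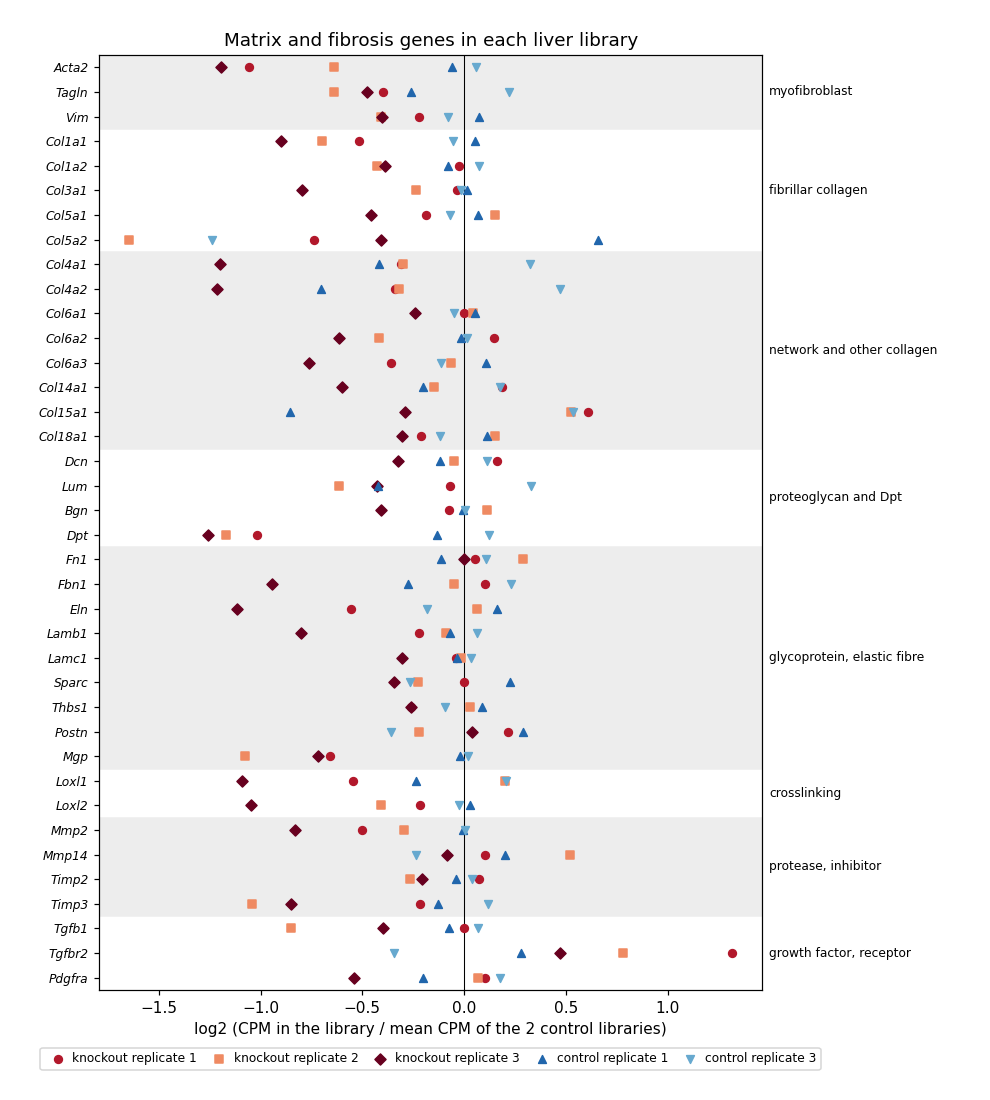
Level of each tested member in each of the 5 libraries, as log2 of the ratio to the mean of the 2 control libraries (x axis), grouped by role. Dark diamonds mark knockout replicate 3, the lowest library in 24 of 38 members, and Dpt, Acta2 and Col1a1 show all 3 knockout libraries apart from the controls.

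The members differed widely in level. Fn1 (fibronectin) had the highest mean, 138 RPKM, followed by Col18a1, the collagen from which endostatin is cut, at 132 RPKM, and the small proteoglycan gene Dcn (decorin) at 59.9 RPKM. These 3 genes held 80.0% to 83.6% of the members' summed RPKM in each library, so a sum over the set mostly reads them. The fourth in order, Sparc (osteonectin, a collagen-binding glycoprotein), was at 12.0 RPKM. All other members had means under 10 RPKM, down to 0.0302 for Lox. The fibrillar collagen genes were low, with 2.06 RPKM for Col3a1, 0.639 for Col1a2 and 0.541 for Col1a1. Neighbours in this order such as Fn1 and Col18a1 overlapped between libraries: Fn1 ranged from 122 to 161 RPKM and Col18a1 from 112 to 154.

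**Figure D3:**
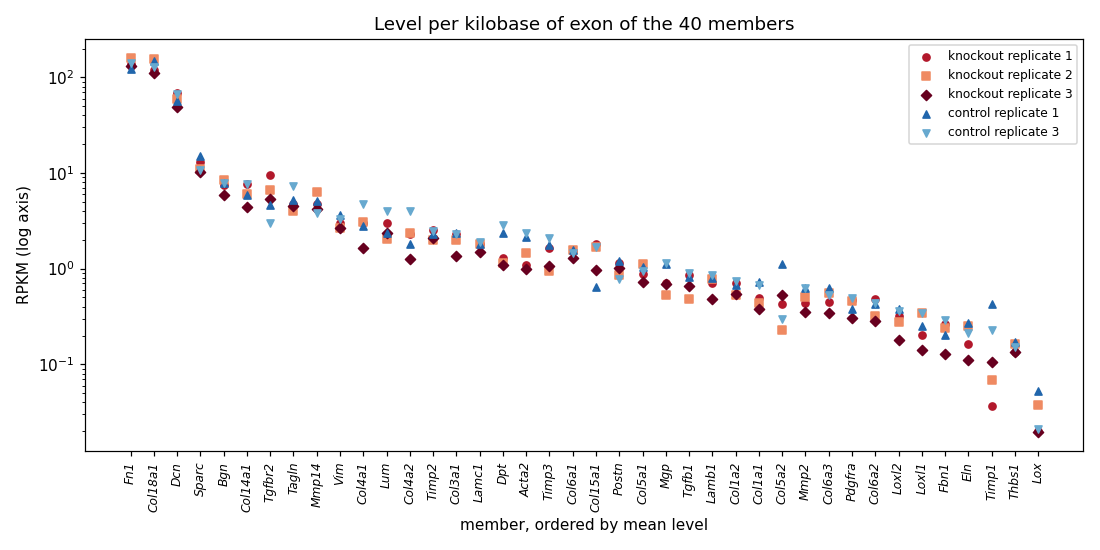
Level per kilobase of exon (RPKM, log axis) of the 40 members in each of the 5 libraries, ordered by mean. Fn1, Col18a1 and Dcn stand above the rest, and Lox and Timp1, which had too few counts to be tested, are among the 3 lowest.

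All 3 myofibroblast genes were lower in every knockout library than in either control library. Acta2 (ENSMUSG00000035783, chromosome 19, 34241090 to 34255336 on GRCm38), the smooth muscle actin that marks activated stellate cells, was at 1.92, 2.56 and 1.75 CPM in knockout and 3.83 and 4.17 CPM in control libraries, from 56 to 123 counts per library. Knockout replicate 2 was the highest of the knockout libraries and still lay below both controls. Its log2 fold change was -0.94 (SE 0.23, 95% interval -1.49 to -0.39). Tagln, an actin-binding protein of contractile cells also known as SM22, was at 7.52, 6.37 and 7.12 CPM in knockout and 8.26 and 11.6 CPM in control libraries. The groups did not overlap, although control replicate 1 came close to knockout replicate 1, and the log2 fold change was -0.50 (SE 0.19, 95% interval -0.95 to -0.05). Without control replicate 3 it was -0.24. Exons of Tagln share 108 bases with Pcsk7 on the other strand, which had up to 1218 counts, so some of its reads could belong to that gene if the counting ignored strand. Vim (vimentin), the intermediate filament of mesenchymal cells, was at 14.2, 12.5 and 12.5 CPM in knockout and 17.4 and 15.7 CPM in control libraries. No knockout library reached the controls in this gene either, with a log2 fold change of -0.34 (SE 0.13, 95% interval -0.64 to -0.04).

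Some smooth muscle genes were low in the same libraries as Acta2 and Tagln, and others were not. The 7 smooth muscle markers summed to 11, 12.8 and 9.69 CPM in knockout and 18.2 and 16.4 CPM in control livers, and 4 of the 5 tested were negative, Smtn among them only slightly. Myh11, the smooth muscle myosin that defines the cell type, was at 3.16, 3.71 and 2.84 CPM in knockout and 7.63 and 5.83 CPM in control libraries. Its log2 fold change was -1.05 (SE 0.20), not past the edgeR threshold, and DESeq2 called it with an adjusted p of 0.0433. Myl9, a myosin light chain, was at 1.82, 1.96 and 1.59 CPM in knockout and 3.52 and 3.59 CPM in control libraries. The groups did not overlap in either gene. Smtn, a smooth muscle cytoskeletal protein, was at 4.36, 5.37 and 4.34 CPM in knockout and 4.96 and 5.05 CPM in control libraries, with overlapping groups and a log2 fold change of -0.09 (SE 0.18). Synpo2, an actin-binding protein, overlapped too, with 0.08 (SE 0.50) on the log2 scale, and Actg2, too low to be tested, had 8 to 13 counts in overlapping groups. These 3 were added after their values were seen. No defining marker of smooth muscle was at 0 in all libraries, though Cnn1 was at 0 in knockout replicate 1, and the part of smooth muscle RNA in the Acta2 and Tagln values was not tested. Most skeletal muscle markers had more than a few counts in 1 library alone: Ckm was at 4.98, 0 and 0 CPM in knockout and 0 and 0 CPM in control libraries, and Acta1 at 9.77, 0.0302 and 0.0938 CPM in knockout and 0.0628 and 0.0678 CPM in control libraries. Mylpf, a muscle myosin light chain, was detected in every library, at 3.13, 0.483 and 0.938 CPM in knockout and 0.502 and 0.847 CPM in control libraries. Acta2 in knockout replicate 1, the library with most of these transcripts, lay between the other knockout libraries. The part of skeletal muscle RNA in the Acta2 values was not tested.

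**Figure D4:**
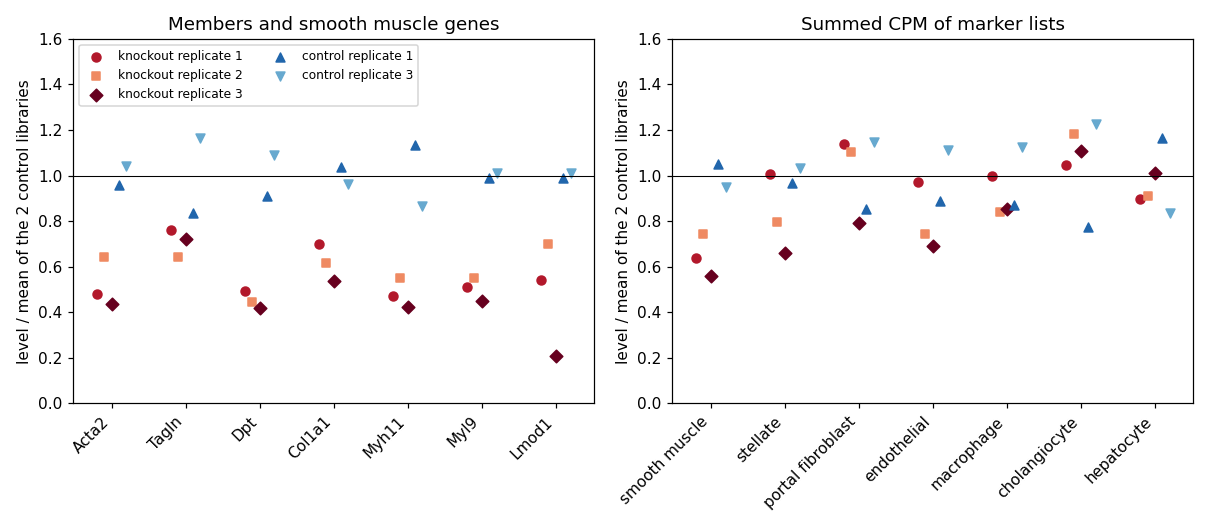
Left, level of 4 members and of 3 smooth muscle marker genes in each library, divided by the mean of the 2 control libraries. Right, the summed CPM of 7 marker lists on the same scale, where the knockout libraries of the smooth muscle list all lie below the controls and those of the other 6 lists overlap with them. Lmod1, a smooth muscle actin regulator, was picked for the plot after its values were seen.

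Fibrillar collagens form the banded fibres of scar tissue, and all 5 of their genes had negative values with a median log2 fold change of -0.32. Col1a1 (ENSMUSG00000001506, chromosome 11, 94936224 to 94953042 on GRCm38), the alpha-1 chain of type I collagen, was at 3.22, 2.84 and 2.47 CPM in knockout and 4.77 and 4.44 CPM in control libraries. Every knockout library lay below both controls, by a log2 fold change of -0.70 (SE 0.19, 95% interval -1.16 to -0.23). Its partner chain Col1a2 was at 8.69, 6.58 and 6.75 CPM in knockout and 8.38 and 9.32 CPM in control libraries. Here knockout replicate 1 lay within the control range and the log2 fold change was -0.27 (SE 0.18, 95% interval -0.69 to 0.15). The ratio of Col1a1 to Col1a2 per kilobase was accordingly 0.70, 0.82 and 0.69 in knockout replicates 1 to 3 and 1.08 and 0.90 in control replicates 1 and 3. Col3a1, the type III chain that is laid down with type I, was at 22.4, 19.5 and 13.2 CPM in knockout and 23.2 and 22.8 CPM in control libraries. The groups did not overlap, but knockout replicate 1 almost reached the controls, and the interval of the log2 fold change, -0.32 (SE 0.22, 95% interval -0.84 to 0.20), included 0. Without knockout replicate 3 it was -0.13.

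Type V collagen starts and limits the growth of type I fibres. Col5a1 was at 7.42, 9.38 and 6.16 CPM in knockout and 8.85 and 8.06 CPM in control libraries, with the groups interleaved and a log2 fold change of -0.14 (SE 0.20, 95% interval -0.63 to 0.34). Col5a2 was at 4.07, 2.17 and 5.12 CPM in knockout and 10.7 and 2.88 CPM in control libraries. Its control libraries differed 3.72-fold, the widest spread between the controls among the tested members. The fitted log2 fold change of -0.85 (SE 0.57, 95% interval -2.20 to 0.51) rested on control replicate 1: it was 0.39 without that library. Col5a2 lies 24614 bases from Col3a1 on chromosome 1, the pair running tail to tail, and the neighbour showed no such spread.

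Type IV collagen is the sheet-forming collagen of basement membranes. Its chains are encoded by Col4a1 and Col4a2, 2 genes on opposite strands of chromosome 8 whose annotated starts overlap by 22 bases. Col4a1 was at 20.6, 20.7 and 11.1 CPM in knockout and 19.1 and 32.0 CPM in control libraries. Col4a2 was at 15.3, 15.4 and 8.31 CPM in knockout and 11.9 and 26.8 CPM in control libraries. Both genes put the libraries in the same order at the ends, with knockout replicate 3 lowest and control replicate 3 highest, and the groups overlapped. The fold changes, -0.55 (SE 0.32, 95% interval -1.32 to 0.23) and -0.57 (SE 0.39, 95% interval -1.51 to 0.37), did not exclude 0, and without control replicate 3 they were -0.13 and 0.13. The ratio of Col4a1 to Col4a2 per kilobase lay between 1.30 and 1.31 in the knockout libraries and was 1.56 and 1.16 in the control libraries.

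Type VI collagen forms beaded filaments around cells. Its 3 chains had log2 fold changes of -0.06 (SE 0.16) for Col6a1, -0.26 (SE 0.26) for Col6a2 and -0.37 (SE 0.23) for Col6a3, with overlapping groups in each. Col6a1 ranged from 5.62 to 6.88 CPM over the 5 libraries, the narrowest of these chains. Col14a1, a collagen that decorates fibril surfaces, was at 53.7, 42.5 and 31.1 CPM in knockout and 41.1 and 53.3 CPM in control libraries. Col18a1, which sits in vascular basement membranes and is also made by hepatocytes, was at 839, 1079 and 786 CPM in knockout and 1049 and 893 CPM in control libraries. In both genes the knockout values spanned the controls, with log2 fold changes of -0.15 (SE 0.24, 95% interval -0.72 to 0.42) and -0.11 (SE 0.19, 95% interval -0.56 to 0.35). Col15a1, a collagen of basement membrane zones, had a positive value, 0.34 (SE 0.44, 95% interval -0.71 to 1.39), and was at 11.4, 10.7 and 6.09 CPM in knockout and 4.11 and 10.8 CPM in control libraries. Control replicate 1 was the lowest library, and without it the value was -0.20.

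In the group of proteoglycans and their binding partners all 4 members had negative values, with a median of -0.23. The lowest fold change of all members belonged to Dpt (ENSMUSG00000026574, chromosome 1, 164796644 to 164824266 on GRCm38), which encodes dermatopontin, a small matrix protein that binds decorin and speeds collagen fibril assembly. Dpt, whose upstream sequence is printed above, was at 2.21, 1.99 and 1.88 CPM in knockout and 4.08 and 4.88 CPM in control libraries, from 60 to 144 counts per library. The 3 knockout livers lay close together and below both controls, with means of 2.03 ± 0.172 CPM (SD, n = 3) in knockout and 4.48 ± 0.563 CPM (SD, n = 2) in control livers. The log2 fold change was -1.14 (SE 0.20, 95% interval -1.61 to -0.67). This did not pass by edgeR (adjusted p of 1), while DESeq2 gave an adjusted p of 0.0218. With 1 library left out in turn DESeq2 did not call it (adjusted p 0.160 to 0.577), although the log2 fold change stayed between -1.28 and -1.01.

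Decorin, the binding partner of dermatopontin and itself a TGF-beta binder, showed no such split. Dcn was at 143, 124 and 102 CPM in knockout and 118 and 138 CPM in control libraries, with knockout libraries at both ends and a log2 fold change of -0.06 (SE 0.17, 95% interval -0.47 to 0.36). Bgn (biglycan), a relative of decorin, was at 45.6, 51.9 and 36.2 CPM in knockout and 47.9 and 48.2 CPM in control libraries. Its 2 controls were almost equal and lay inside the knockout range, and its log2 fold change was -0.11 (SE 0.16, 95% interval -0.50 to 0.28). Lum (lumican), which spaces collagen fibrils and lies 46984 bases from Dcn on chromosome 10, was at 6.25, 4.29 and 4.88 CPM in knockout and 4.90 and 8.23 CPM in control libraries. The groups overlapped and control replicate 3 was highest, with a log2 fold change of -0.35 (SE 0.27, 95% interval -1.01 to 0.30), or 0.07 without that library.

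The 9 glycoprotein, laminin and elastic fibre genes had a median log2 fold change of -0.18, with 7 negative values. Fn1 was at 1597, 1878 and 1539 CPM in knockout and 1421 and 1656 CPM in control libraries. Knockout replicate 2 was highest, the other libraries overlapped, and the log2 fold change was 0.12 (SE 0.17, 95% interval -0.28 to 0.52), so that its interval excludes a 1.5-fold change in either direction. Lamc1, the gamma-1 chain shared by most laminins, was at 14.8, 15.1 and 12.3 CPM in knockout and 14.9 and 15.6 CPM in control libraries, and Sparc at 43.6, 37.3 and 34.3 CPM in knockout and 50.9 and 36.3 CPM in control libraries. Neither separated the groups, with log2 fold changes of -0.11 (SE 0.13) and -0.18 (SE 0.18). Lamb1, the beta-1 laminin chain, did separate them, at 7.07, 7.72 and 4.72 CPM in knockout and 7.85 and 8.60 CPM in control libraries, but knockout replicate 2 lay just below control replicate 1, and the interval of -0.34 (SE 0.23, 95% interval -0.89 to 0.21) included 0. Without knockout replicate 3 it was -0.15.

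Mgp (matrix Gla protein), an inhibitor of calcification, was among the 7 lower members with an unadjusted p under 0.05. It was at 0.847, 0.634 and 0.812 CPM in knockout and 1.32 and 1.35 CPM in control libraries, from 21 to 42 counts per library. The groups did not overlap, and the log2 fold change was -0.81 (SE 0.26, 95% interval -1.43 to -0.18). The remaining members of this group had overlapping libraries. Their log2 fold changes were -0.23 (SE 0.35) for Fbn1 (fibrillin, the microfibril scaffold), -0.45 (SE 0.36) for Eln (elastin), -0.16 (SE 0.27) for Thbs1 (thrombospondin, an activator of latent TGF-beta) and 0.02 (SE 0.23) for Postn (periostin). Exons of Fbn1 share 2442 bases with Gm9913 on the other strand, so its counts are uncertain without the strand setting. The sign of Postn was negative with upper-quartile scaling and on all 6 columns as deposited. Thbs1 and Mgp had at most 42 counts in any library, and a small change could not be detected at that depth.

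Lysyl oxidase transcripts, which encode the crosslinking enzymes, were scarce in these livers. Lox was at 0.0977, 0.181 and 0.0938 CPM in knockout and 0.251 and 0.102 CPM in control libraries, 3 to 8 counts per library, too few to be tested. Loxl1, which acts on elastin, was at 0.684, 1.15 and 0.469 CPM in knockout and 0.848 and 1.15 CPM in control libraries, and Loxl2, which acts on type IV collagen, at 1.73, 1.51 and 0.969 CPM in knockout and 2.04 and 1.97 CPM in control libraries. Loxl1 overlapped between the groups, with a log2 fold change of -0.38 (SE 0.42, 95% interval -1.38 to 0.63). Loxl2 did not overlap, with knockout replicate 3 lowest, and its log2 fold change was -0.52 (SE 0.29, 95% interval -1.22 to 0.18), an interval that included 0. Without knockout replicate 3 the values were -0.12 for Loxl1 and -0.31 for Loxl2.

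Among the 5 proteases and inhibitors, 4 could be tested and 3 of them had negative values, with a median of -0.33. Timp3, an inhibitor that stays bound to the matrix, was at 13.5, 7.60 and 8.69 CPM in knockout and 14.3 and 17.0 CPM in control libraries. The groups did not overlap, though knockout replicate 1 lay near control replicate 1, and the log2 fold change was -0.66 (SE 0.25, 95% interval -1.26 to -0.05). Exons of Timp3 share 1733 bases with Syn3 on the other strand, which had at most 37 counts. Timp2 overlapped, at 9.80, 7.75 and 8.09 CPM in knockout and 9.07 and 9.59 CPM in control libraries, with a log2 fold change of -0.13 (SE 0.16, 95% interval -0.50 to 0.25). Timp1, the inhibitor induced in injured liver, was at the floor of detection, with 1, 2 and 3 counts in the knockout libraries and 12 and 6 in the controls. Those counts did not overlap, but the gene was too low to be tested. Mmp2, the gelatinase that mesenchymal cells secrete, was at 1.33, 1.54 and 1.06 CPM in knockout and 1.88 and 1.90 CPM in control libraries. Both controls lay above all knockout libraries, but the interval of -0.52 (SE 0.25, 95% interval -1.12 to 0.07) included 0. Mmp14, the membrane-bound protease that activates the Mmp2 product, had a positive value, 0.20 (SE 0.22, 95% interval -0.32 to 0.72), and was at 20.6, 27.5 and 18.1 CPM in knockout and 22.1 and 16.3 CPM in control libraries. Its control libraries were interleaved with the knockout libraries, and without control replicate 3 the value was 0.0015.

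The growth factor and receptor genes did not go one way. Tgfbr2 (ENSMUSG00000032440, chromosome 9, 116087698 to 116175363 on GRCm38), the type II receptor that binds TGF-beta and starts its signal, had the highest fold change of the set. It was at 45.5, 31.4 and 25.4 CPM in knockout and 22.2 and 14.4 CPM in control libraries. All 3 knockout libraries lay above both controls, knockout replicate 1 by the most, and knockout replicate 3 exceeded control replicate 1 by little. The log2 fold change was 0.90 (SE 0.29, 95% interval 0.20 to 1.60), not past the threshold by edgeR, with a DESeq2 adjusted p of 0.709. The ligand gene Tgfb1 was at 4.36, 2.41 and 3.31 CPM in knockout and 4.14 and 4.57 CPM in control libraries. Knockout replicate 1 reached the controls while the other knockout libraries lay below them, with a log2 fold change of -0.38 (SE 0.27, 95% interval -1.02 to 0.27). It was -0.61 without knockout replicate 1 and -0.18 without knockout replicate 2. Pdgfra, the PDGF receptor of fibroblasts and stellate cells, was at 4.72, 4.62 and 3.03 CPM in knockout and 3.83 and 4.98 CPM in control libraries. Its knockout libraries lay on both sides of control replicate 1, with a log2 fold change of -0.09 (SE 0.25, 95% interval -0.71 to 0.52).

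Other genes of the matrix and of TGF-beta and PDGF signalling were read from 7 lists written with earlier results of these data known. By edgeR 0 genes of these lists passed the threshold, limma-voom called 0, and DESeq2 called 1, Col6a5, beside 0.116% of all tested genes. Of 17 tested further collagen genes, 12 were negative. An unadjusted p under 0.05 by edgeR was found in 2 (11.8%), both lower, beside 3.43% of all tested genes (1.80% lower). Col6a5, a further chain of type VI collagen, was at 0.391, 0.392 and 0.219 CPM in knockout and 1.51 and 3.52 CPM in control libraries, with a log2 fold change of -2.90 (SE 0.46) and a DESeq2 adjusted p of 0.000899. Col7a1, the collagen of anchoring fibrils, was at 0.456, 0.573 and 0.594 CPM in knockout and 0.753 and 1.08 CPM in control libraries, with a log2 fold change of -0.75 (SE 0.31). Of 24 genes for collagen folding, modification and trimming, 14 were negative, with a median of -0.03. In 2 of them (8.33%) the unadjusted p was under 0.05, both lower. Adamts2, the protease that trims procollagen, was at 2.64, 3.05 and 2.53 CPM in knockout and 3.61 and 4.64 CPM in control libraries. Crtap, a subunit of the prolyl 3-hydroxylase complex, was at 2.44, 2.44 and 2.59 CPM in knockout and 3.20 and 3.90 CPM in control libraries. The groups did not overlap in either gene, with log2 fold changes of -0.59 (SE 0.21) and -0.51 (SE 0.19). Col6a5, Col7a1 and Crtap lie on chromosome 9, with lower ends at 105856070, 108953586 and 114375134. The member Tgfbr2, which was higher in knockout, has its lower end at 116087698 on that chromosome. Whether these differences are independent was not tested.

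Basement membrane laminins, nidogens and perlecan had 7 negative values among 13 tested genes and a median of -0.04, and 0 had an unadjusted p under 0.05. Hspg2, the perlecan gene, was at 19.5, 16.5 and 13.4 CPM in knockout and 20.4 and 22.1 CPM in control libraries, below the controls in every knockout library, while the laminin gene Lamb3 was at 7.98, 11 and 3.75 CPM in knockout and 4.08 and 4.30 CPM in control libraries and overlapped. Of 28 further matrix glycoproteins and proteoglycans, 19 were negative with a median of -0.15. An unadjusted p under 0.05 by edgeR was found in 3 (10.7%), all lower, beside 3.43% of all tested genes. The most marked was Fmod (fibromodulin), a relative of lumican, at 1.04, 0.754 and 1.06 CPM in knockout and 1.70 and 2.0 CPM in control libraries, with a log2 fold change of -0.95 (SE 0.26), followed by Fbln1 (fibulin), at 0.716, 0.573 and 0.594 CPM in knockout and 0.848 and 1.42 CPM in control libraries, with a log2 fold change of -0.85 (SE 0.33). Neither overlapped between the groups.

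In the TGF-beta list, 23 of 29 tested genes were negative, with a median of -0.07 and a lowest value of -0.67. An unadjusted p under 0.05 by edgeR was found in 1, Smad6, a share of 3.45% beside the 3.43% of all tested genes. Smad6, an inhibitory Smad, was at 4.46, 5.37 and 5.28 CPM in knockout and 7.44 and 6.40 CPM in control libraries, with a log2 fold change of -0.46 (SE 0.17). Pmepa1, a TGF-beta target that also dampens the signal, was at 1.92, 1.63 and 1.94 CPM in knockout and 2.76 and 2.34 CPM in control libraries, with a log2 fold change of -0.48 (SE 0.22). Every knockout library lay below the controls for either gene.

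Markers of other cell types that the liver sample holds gave these sums. Portal fibroblast markers (5 of 7 tested negative) summed to 29.5, 28.7 and 20.5 CPM in knockout and 22.2 and 29.8 CPM in control livers, lowest in knockout replicate 3. Macrophage markers (10 of 11 negative) summed to 370.0, 310.4 and 316 CPM in knockout and 323 and 417 CPM in control livers. Cholangiocyte markers (4 of 6 negative) summed to 50.8, 57.5 and 53.8 CPM in knockout and 37.5 and 59.6 CPM in control livers. Hepatocyte markers (7 of 10 negative) summed to 91500, 93140 and 103100 CPM in knockout and 118800 and 85350 CPM in control livers. Mesothelial markers (3 of 3 negative) summed to 2.57, 2.41 and 2.66 CPM in knockout and 1.82 and 3.93 CPM in control livers, and erythroid markers (5 of 5 negative) to 469, 543 and 424 CPM in knockout and 674 and 503 CPM in control livers. Each of these sums overlapped between the groups. The fat cell genes Adipoq, Plin1 and Lep had at most 1 count per library, and the 6 fat cell markers summed to 9.38, 7.91 and 4.34 CPM in knockout and 6.75 and 6.23 CPM in control livers. The 6 skeletal muscle markers summed to 35.3, 0.664 and 1.19 CPM in knockout and 0.659 and 0.915 CPM in control livers. The part of these cell types in the members' values was not tested.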

How the data were processed

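RNA-seq counts of 6 liver libraries were used. The deposited file is a table of raw counts, whole numbers without normalization, in which every gene row also has its exon coordinates and total exon length, per the file headers. Reads had been handled with featureCounts 1.4.6-p4, Subread 1.4.6-p4, Trimmomatic 0.33 and FastQC on mm10, also called GRCm38, per the submitters' processing notes. Whether counting used strand, how it treated multiply matching reads and which annotation it followed is not given in the sources used here, so counts of overlapping genes are uncertain.

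Symbols came from GENCODE vM21, which held 46488 of 46983 identifiers. Control replicates 1 and 2 were identical and entered as 1 library. Genes were kept by filterByExpr, which left 16441, scaled by TMM and compared by the quasi-likelihood F test of edgeR (Benjamini-Hochberg adjustment, two-sided, over all kept genes, threshold 0.05). DESeq2 and limma-voom were alternatives. RPKM is TMM-scaled CPM per kilobase of summed exons. Intervals are at 95%, and those and the 3-count limits cover the spread or counting error of these libraries only.

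The 40 members, the 7 pathway lists and the 11 marker lists were chosen with earlier results of these data known. Values of every library are given for the 3 members of each role with the highest RPKM and for members with an unadjusted p under 0.05, and the 2 genes with the smallest p are named from other lists. Values of other members were added after they were seen. Data of 3 against 2 libraries and 16197 genes were also simulated. The test called 62 of 100 genes changed 2-fold there and 100 of 100 changed 4-fold. It also made 22 false calls, so errors among its calls were commoner than the threshold of 0.05 aims at. The changed genes were drawn only from those above a minimum mean level, and Dpt, Acta2, Col1a1 and Mgp lie below it. The called shares therefore do not cover these members or others at low levels. Versions were edgeR 4.0.16, DESeq2 1.42.0, limma 3.58.1, R 4.3.3, matplotlib 3.10.9 and Python 3.11.15.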

Additional observations from a re-analysis of the deposited data

How the results depend on the processing

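Across 9 alternatives on all libraries (other tools, scalings and filters, all 6 columns, and the replicate block), 336 of 339 member values kept their direction and their side of the threshold. DESeq2 called 19 genes and 1 member, Dpt, and edgeR without the count filter called 3 genes. Postn turned to -0.0085 with upper-quartile scaling and to -0.0806 on all 6 columns; the cause was not tested. The replicate block, for numbers that knockout and control libraries merely share, called 0 genes, Mtdh included (log2 fold change -4.28), and left 33 members negative. In that fit knockout replicate 2 had no same-numbered control. Its contrast therefore rested on replicates 1 and 3 of each group, which leaves little to estimate the error from. Deviations of same-numbered libraries correlated at 0.06 and 0.16. With 2 controls, the deviations of the controls mirror each other, so these values cannot show whether equal numbers go together. Knockout replicate 2, which has no same-numbered control, correlated at 0.11 with control replicate 1. With 1 library left out in turn, 1 to 6 genes and 0 members passed by edgeR, 27 to 34 members were negative, their median ran from -0.40 to -0.13 and 12 to 23 members did not overlap. Those counts are 31.6% to 60.5% of the members tested, beside 26.9% to 50.9% of all genes in the same fits, where fewer libraries separate more easily. Of the members, 11 to 20 lay below the controls, beside 13.9% to 25.9% of all genes. The ends of these ranges come from different fits: the 31.6% stood beside 31.4% of all genes, without knockout replicate 3. The sign turned in 13 members, 18 values in all, between these lowest and highest values: Postn -0.26 and 0.38, Col6a1 -0.12 and 0.0218, Col14a1 -0.36 and 0.0493, Dcn -0.18 and 0.0622, Bgn -0.23 and 0.0204, Fbn1 -0.46 and 0.0478, Pdgfra -0.28 and 0.11, Col5a2 -1.50 and 0.39, Col15a1 -0.20 and 1.19, Col18a1 -0.26 and 0.0097, Sparc -0.40 and 0.0772, Col4a2 -1.05 and 0.13, Lum -0.69 and 0.0702. In 17 of the 25 members that kept their sign a left-out library moved the value by over 1.5 times, among them Mmp14 (0.0015 to 0.43), Fn1 (0.0083 to 0.24), Col5a1 (-0.32 to -0.0099), Eln (-0.81 to -0.21), Loxl1 (-0.79 to -0.12), Tgfb1 (-0.61 to -0.18) and Lamb1 (-0.48 to -0.15). The median of the further collagens moved from -0.26 to -0.05 under the replicate block and to 0.03 and 0.04 without control replicates 1 and 3, in fits chosen after seeing the data. With 1 library left out, 12 of 85 list medians moved by more than the spread between replicates, and 11 of 17 lists changed the sign of their median, TGF-beta (-0.13 to 0.03), collagen maturation (-0.07 to 0.02), laminins (-0.15 to 0.09), proteases (-0.17 to 0.03) and PDGF genes (-0.16 to 0.10) included. The median of the smooth muscle markers stayed between -1.06 and -0.68, that of endothelial markers between -0.57 and -0.21 and that of stellate markers between -0.30 and -0.07. With 2 distinct controls the error is estimated from few libraries, and members with few counts, such as Lox, Timp1, Mgp and Thbs1, allow only large differences to be seen.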

Other observations

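Matrix proteases outside the 40 members gave 12 negative values among 20 tested genes, with a median log2 fold change of -0.07. An unadjusted p under 0.05 by edgeR was found in 1 gene (5.0%), beside 3.43% of all tested genes. Mmp11 (stromelysin-3) was at 0.358, 0.332 and 0.312 CPM in knockout and 0.534 and 0.610 CPM in control libraries, with a log2 fold change of -0.77 (SE 0.32). Plaur, the receptor that holds urokinase at the cell surface, was at 0.553, 0.483 and 0.594 CPM in knockout and 0.283 and 0.373 CPM in control libraries, with a log2 fold change of 0.73 (SE 0.34). Of the 5 PDGF genes, 2 were negative and the median was 0.04. The receptor gene Pdgfrb was at 7.13, 9.44 and 6.53 CPM in knockout and 8.41 and 9.04 CPM in control libraries and the ligand gene Pdgfa at 6.54, 6.43 and 5.97 CPM in knockout and 6.31 and 5.25 CPM in control libraries, and the groups overlapped in both.

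In the remaining marker lists the genes with the smallest p had these log2 fold changes. They were -0.89 (SE 0.31) for Cd34 and -0.52 (SE 0.25) for Thy1 among portal fibroblast markers, and -0.68 (SE 0.29) for Adgre1 and -0.28 (SE 0.16) for Csf1r among macrophage markers. Sox9 had -0.82 (SE 0.32) and Krt19 -0.44 (SE 0.35) among cholangiocyte markers, Upk3b -0.57 (SE 0.45) and Gpm6a -0.004 (SE 0.28) among mesothelial markers, and Fgb -0.39 (SE 0.26) and Ahsg -0.28 (SE 0.21) among hepatocyte markers. Cfd had 1.58 (SE 0.71) and Fabp4 -0.06 (SE 0.26) among fat cell markers, Alas2 -0.27 (SE 0.13) and Hbb-bt -0.37 (SE 0.23) among erythroid markers, and Mylpf 1.16 (SE 0.80) as the 1 tested skeletal muscle marker. None of the named genes of these lists passed the threshold by edgeR.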
